A study of Mus musculus with 15 samples.

Results

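The transcripts of 10 lysine histone demethylase genes (Kdm1a, Kdm2a, Kdm2b, Kdm3a, Kdm4a, Kdm5a, Kdm5b, Kdm5c, Kdm6a and Kdm6b) were followed in D1 cells stimulated through dectin-1, among 19937 genes tested on the same arrays. A member is a gene whose platform symbol is exactly one of these names, and all 10 were found, each on 1 probe set. D1 is a long-term line of splenic dendritic cells (DCs) of the C57BL/6 strain, so that all arrays come from 1 line. The cells were given curdlan, a beta-glucan that binds dectin-1, together with FK506 for 2 h or 4 h, or curdlan alone for 2 h or 4 h, or were left nontreated. The curdlan dose was 10 µg/ml, and FK506 is a drug that blocks calcineurin, the phosphatase through which calcium signals move NFAT factors into the nucleus. Each of the 5 groups has 3 arrays that the labels call biological replicates, and no FK506 group without curdlan is analysed here. The labels give 1 nontreated group without a time, so groups of 2 h and 4 h are compared with the same nontreated arrays. In those comparisons curdlan and time in culture cannot be told apart, and a gene called raised by curdlan is one above that group. The labels do not say whether replicates are separate cultures, so p-values measure the spread between these arrays.

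Histone demethylases remove methyl groups from lysines of the histone tails. Kdm1a is a flavin-dependent enzyme, and the other members carry a JmjC domain, which uses iron, oxygen and 2-oxoglutarate. KDM1A and the KDM5 enzymes act on H3K4, a mark of active promoters and enhancers, KDM2 enzymes mainly on H3K36, KDM3A on H3K9, KDM4A on H3K9 and H3K36, and the KDM6 enzymes on H3K27, the mark laid down by Polycomb repressive complex 2 (PRC2). Kdm6b, also called Jmjd3, is known in macrophages as a gene that inflammatory stimuli induce.

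The values are log2 intensities after robust multi-array averaging (RMA), in which 1 unit is a doubling of signal. Signals of different probe sets depend on their probes, so levels were compared between groups of the same gene and not between genes. The call of a raised or lowered gene needed 2 things in limma, an adjusted p under 0.05 and a change of 1.5-fold or more (log2 0.585). Of 11 dendritic cell markers, 10 lay above the median of gene means (6.76) in every group, with Itgax, Cd74, H2-Ab1 and H2-Aa between 12.06 and 12.98, while Flt3 stayed between 5.69 and 5.93. Others moved, and 2 of the 11 were raised at 2 h of curdlan (2.2% of all genes) and 4 at 4 h (5.05%). Irf8 averaged 10.37 at 2 h and 11.18 at 4 h of curdlan, against 8.78 in nontreated cells. Ccr7 averaged 9.79 with FK506 and 10.32 with curdlan alone at 4 h (difference not called), against 9.24 in nontreated cells. Of 6 measured macrophage markers, 4 to 6 lay above that median in each group, among them Adgre1 (11.67 to 11.73) and Csf1r (11.51 to 11.99), which were high in all groups. Mertk averaged 6.98 at 2 h and 6.17 at 4 h with FK506 and 8.51 and 8.38 with curdlan alone, against 8.11 in nontreated cells, and was called lower with FK506 than with curdlan alone at both times (log2 difference -1.53, adjusted p = 1.65e-07, and -2.20, adjusted p = 4.35e-09). Cd14 averaged 6.46 and 6.51 with FK506 and 7.01 and 7.41 with curdlan alone, against 6.29 in nontreated cells, and was called higher with curdlan at both times (0.71 and 1.12) and lower with FK506 at 4 h (-0.90, adjusted p = 0.000726). Of 5 fibroblast markers 2 or 3 lay above the median in each group, with Col1a1 the highest at 7.21 to 7.44, and 0 of the measured T cell (4), B cell (3) and neutrophil (5) markers did. The part of these markers in the results was not tested. The array method reads a mixed RNA pool, in which fewer cells expressing a gene and less RNA per cell cannot be told apart.

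A pair of arrays stood apart from the rest of their groups, nontreated replicate 1 (array weight 0.0781) and curdlan 2 h replicate 3 (0.119). Their medians over all probe sets were 6.57 and 6.53, against 6.45 to 6.51 on the other 13 arrays. Kdm3a, Kdm5b and Kdm6a were low on both of them. Kdm3a read 7.59 on nontreated replicate 1, against 8.12 and 8.25 on the other nontreated arrays, and 8.41 on curdlan 2 h replicate 3, against 8.78 and 8.83 on the other arrays of that group. Values without both arrays are given where they matter, and the part of these arrays in the results was otherwise not tested.

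The sequence before the transcription start is shown for Kdm3a and Kdm5c, the called members for which RefSeq windows were at hand, because each holds a motif of a factor family downstream of dectin-1. Windows of 250 bases before the start were taken from RefSeq (GRCm38.p6), where 7 of the 10 members had 12 entries, and Kdm2a, Kdm5a and Kdm6b had none. Capitals mark GGAAAA, the core read by NFAT, printed here as its reverse complement for Kdm3a, and TGANTCA, the AP-1 motif, for Kdm5c. The Kdm3a window is chr6:71632918-71633167 on the minus strand and the Kdm5c window is chrX:152232977-152233226 on the plus strand.
Kdm3a, start 1: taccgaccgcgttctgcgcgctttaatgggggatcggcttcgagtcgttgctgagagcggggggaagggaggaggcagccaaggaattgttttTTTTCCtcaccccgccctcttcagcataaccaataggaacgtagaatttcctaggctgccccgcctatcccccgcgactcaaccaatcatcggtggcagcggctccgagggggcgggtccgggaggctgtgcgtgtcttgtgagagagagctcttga
Kdm5c: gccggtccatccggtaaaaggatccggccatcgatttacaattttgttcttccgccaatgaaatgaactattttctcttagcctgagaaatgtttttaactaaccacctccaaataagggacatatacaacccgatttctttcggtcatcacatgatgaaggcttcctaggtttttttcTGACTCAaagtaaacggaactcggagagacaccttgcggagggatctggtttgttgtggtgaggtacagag
In Kdm3a the GGAAAA core lay 157 to 152 bases before the start, and in Kdm5c the AP-1 motif lay 71 to 65 bases before it. Kdm3a start 2 carried TGANTCA 175 to 169 bases upstream, and Kdm3a start 3 held none of the motifs searched. TGANTCA was also found for Kdm4a (190 to 184), and GGAAAA for Kdm5b (49 to 44) and for 1 of 4 Kdm2b starts (236 to 231). Over all 32851 windows of this length, searched on both strands, 20.4% held GGAAAA, 6.75% TGANTCA and 1.41% the NF-kB motif (GGGNN followed by TTTCC), which no member window held. A match is a description of the letters and shows no binding.

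Kdm6b was the member that moved most. This H3K27 demethylase gene (gene ID 216850, probe set 10387372) was raised at both times with and without FK506, and its level with FK506 was within 0.31 log2 units of that with curdlan alone. With curdlan alone the 3 arrays read 11.18, 11.25 and 11.12 at 2 h and 10.78, 10.80 and 10.78 at 4 h, against 7.88, 7.98 and 7.99 in nontreated cells. All 6 curdlan arrays lay above all nontreated arrays, and replicates of a group differed by at most 0.13. Its log2 fold change over nontreated cells was 3.23 ± 0.05 at 2 h (SE, 9.39-fold, limma adjusted p = 1.21e-14) and 2.84 ± 0.05 at 4 h (7.15-fold, adjusted p = 4.13e-14). By size of rise it ranked 19 among 19937 genes at 2 h and 53 at 4 h, and over the 5 groups only 41 genes had group means that spanned as much as its 3.23 log2 units, itself included.

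With FK506 present, Kdm6b read 11.00, 10.93 and 11.03 at 2 h and 10.51, 10.45 and 10.48 at 4 h. At each time these 3 arrays lay below all 3 arrays with curdlan alone. The log2 difference from curdlan alone was -0.20 ± 0.05 at 2 h (95% confidence interval -0.30 to -0.10, adjusted p = 0.0184) and -0.31 ± 0.05 at 4 h (-0.41 to -0.21, adjusted p = 0.000502). Both had an adjusted p under the threshold, but as folds of 1.15 and 1.24 downward they were short of 1.5 and were not called. The FK506 effect at 4 h minus that at 2 h was -0.11 ± 0.07 (adjusted p = 0.387). Against nontreated cells the rise with FK506 was 3.03 at 2 h (8.18-fold, adjusted p = 6.19e-14) and 2.53 at 4 h (5.76-fold, adjusted p = 2.4e-13). Between the times, Kdm6b at 4 h minus 2 h was -0.51 ± 0.05 log2 units with FK506 (adjusted p = 6.13e-06) and -0.39 ± 0.05 with curdlan alone (adjusted p = 2.62e-05), again below the fold threshold.

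**Figure D1:**
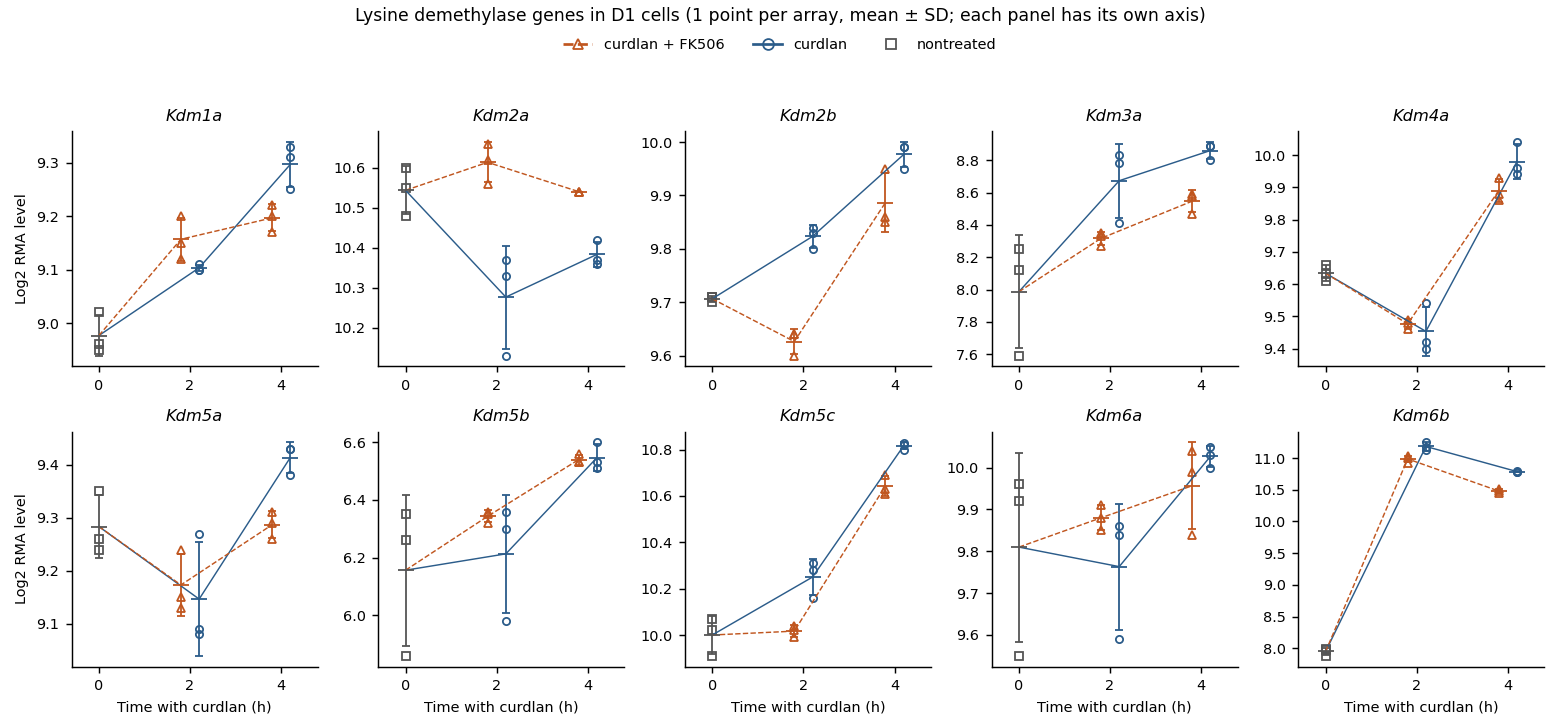
Log2 RMA level (y axis, separate scale per gene) of the 10 demethylase genes by hours with curdlan (x axis, nontreated cells at 0), 1 point per array, with the mean and SD of 3 arrays; triangles are curdlan with FK506, circles curdlan and squares nontreated. Kdm6b stands at 10.45 to 11.25 in all stimulated arrays and at 7.88 to 7.99 in nontreated ones, while nontreated replicate 1 gives the low points of Kdm3a, Kdm5b and Kdm6a.

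Of the other JmjC members, Kdm3a was raised by curdlan at both times and Kdm5c at 4 h. Kdm3a (gene ID 104263, probe set 10545308), an H3K9 demethylase gene, read 8.78, 8.83 and 8.41 after 2 h of curdlan and 8.80, 8.89 and 8.89 after 4 h, against 7.59, 8.12 and 8.25 in nontreated cells. The groups did not overlap at either time, although nontreated cells spread over 0.65 log2 units. Its log2 fold change was 0.69 ± 0.14 at 2 h (1.61-fold, adjusted p = 0.0027) and 0.87 ± 0.14 at 4 h (1.83-fold, adjusted p = 0.000198). Without nontreated replicate 1 the 2 h value was 0.49 and no longer called. Without both arrays that stood apart it was 0.62 at 2 h and 0.68 at 4 h, called at both times.

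With FK506, Kdm3a read 8.33, 8.27 and 8.35 at 2 h and 8.47, 8.59 and 8.58 at 4 h, below every array with curdlan alone at the same time. The difference was -0.36 ± 0.14 at 2 h (95% confidence interval -0.66 to -0.05, adjusted p = 0.176) and -0.32 ± 0.14 at 4 h (-0.62 to -0.01, adjusted p = 0.218), and neither was called. Without both arrays that stood apart it was -0.49 at 2 h (adjusted p = 4.85e-05) and -0.32 at 4 h (adjusted p = 0.00037), still short of 1.5-fold. Against nontreated cells Kdm3a differed by 0.33 at 2 h with FK506 (adjusted p = 0.128) and by 0.56 at 4 h (1.47-fold, adjusted p = 0.00884), just under the fold threshold. Without nontreated replicate 1 these values were 0.13 at 2 h (adjusted p = 0.498) and 0.36 at 4 h (adjusted p = 0.0168). Repeated quantile normalization (0.61) or median centring of the arrays (0.63) put the 4 h value past the fold threshold. So did leaving out nontreated replicate 2 (0.62), nontreated replicate 3 (0.69) or FK506 4 h replicate 1 (0.59).

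Kdm5c (gene ID 20591, probe set 10602644), an X-linked H3K4 demethylase gene, was raised at 4 h. It read 10.61, 10.63 and 10.69 at 4 h of curdlan with FK506 and 10.83, 10.82 and 10.80 at 4 h of curdlan alone, against 9.91, 10.07 and 10.02 in nontreated cells. All 6 arrays at 4 h lay above all arrays at 2 h. Its log2 fold change over nontreated cells at 4 h was 0.65 ± 0.05 with FK506 (1.57-fold, adjusted p = 3.19e-07) and 0.82 ± 0.05 with curdlan alone (1.77-fold, adjusted p = 1.69e-08).

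At 2 h Kdm5c read 9.99, 10.02 and 10.04 with FK506, inside the nontreated range, and 10.31, 10.28 and 10.16 with curdlan alone, above it. The difference from nontreated cells was 0.02 with FK506 (95% confidence interval -0.09 to 0.13) and 0.25 with curdlan (0.14 to 0.36, adjusted p = 0.00255), and neither reached 1.5-fold. FK506 minus curdlan alone was -0.23 ± 0.05 at 2 h (adjusted p = 0.0117) and -0.17 ± 0.05 at 4 h (adjusted p = 0.0406), again with groups that did not overlap and folds of 1.17 and 1.13. The step at 4 h over 2 h was 0.63 ± 0.05 with FK506 (1.54-fold, adjusted p = 1.77e-06, called) and 0.57 ± 0.05 with curdlan alone (1.49-fold, adjusted p = 1.6e-06), just short of a call. The curdlan step passed without curdlan 2 h replicate 1 (0.60) or replicate 2 (0.59) and with centred medians (0.64).

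Counted over the members, 2 of the 10 genes were raised by curdlan at 2 h (Kdm3a, Kdm6b), where 2.2% of all genes tested were raised. At 4 h 3 of 10 were raised (Kdm3a, Kdm5c, Kdm6b), against 5.05% of all genes. With FK506, 1 of 10 was raised over nontreated cells at 2 h (Kdm6b; 1.81% of all genes) and 2 at 4 h (Kdm5c, Kdm6b; 2.95%).

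Smaller differences were common, among the members and in the whole table. At an adjusted p under 0.05 without a fold threshold, 7 of 10 members passed at 2 h of curdlan (20.1% of all genes) and 8 at 4 h (37.3%). With FK506 3 members passed over nontreated cells at 2 h (17.6%) and 7 at 4 h (26%). The groups did not overlap for 7 members at 2 h (25.1% of all genes) and for 10 at 4 h (50.6%). All genes include those of low signal, whereas member means lay above those of 44.5% (Kdm5b) to 90.6% (Kdm2a) of genes. The part of signal level in these shares was not tested. The median log2 fold change of the 10 members over nontreated cells was 0.09 at 2 h of curdlan and 0.33 at 4 h. Over all genes it was -0.04 and -0.12, and over 21 other demethylases and JmjC proteins -0.04 and -0.03. At 4 h 9 of 10 members were above 0, the exception being Kdm2a. Centring every array on its median raised the all-gene value at 4 h by over 0.1, to about 0, and the 3 called members then stood at 2.95 (Kdm6b), 0.98 (Kdm3a) and 0.93 (Kdm5c).

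**Figure D2:**
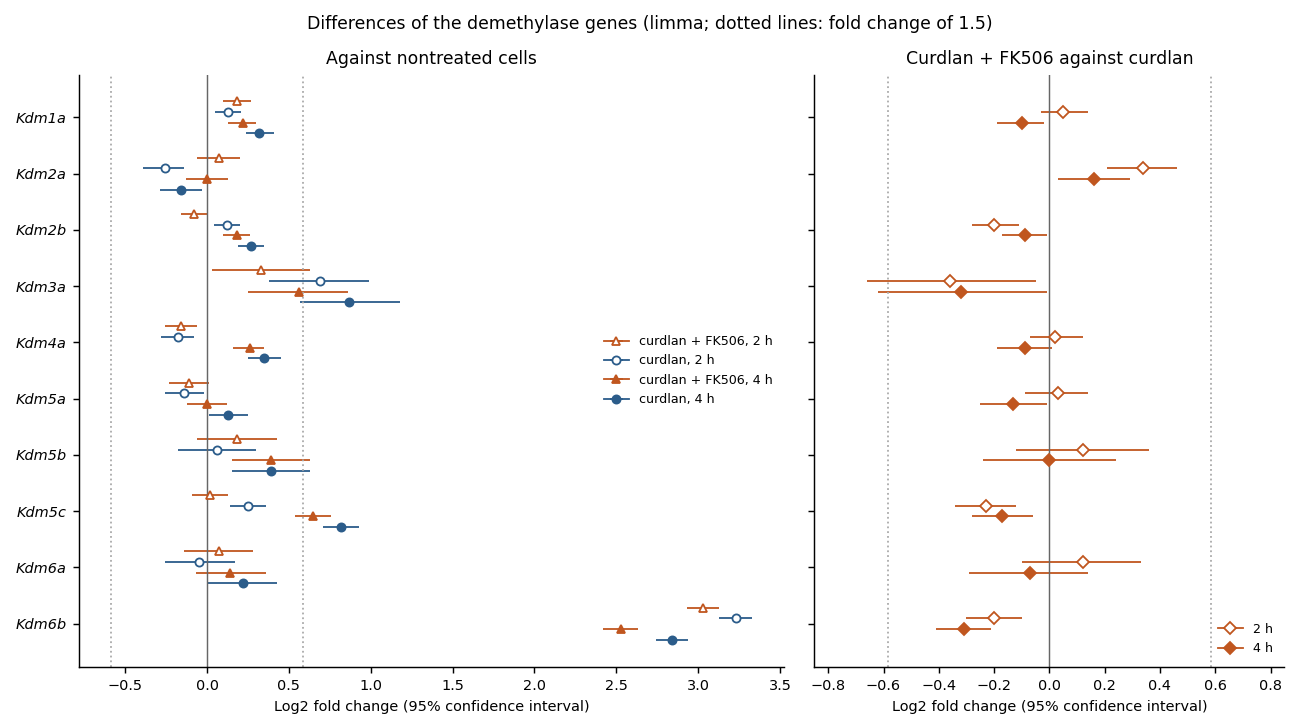
Log2 fold change with 95% confidence interval (x axis) of each demethylase gene (rows), against nontreated cells on the left (curdlan with FK506 as triangles, curdlan as circles, 2 h open and 4 h filled) and of curdlan with FK506 against curdlan on the right (2 h open, 4 h filled). On the left Kdm6b stands at 2.53 to 3.23 and the other members between -0.26 and 0.87, and on the right all members stay between the dotted lines at a fold change of 1.5.

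The H3K4 demethylase genes other than Kdm5c were not called. Kdm1a, the flavin-dependent enzyme of the CoREST complex, averaged 9.10 ± 0.01 at 2 h and 9.30 ± 0.04 at 4 h of curdlan, against 8.98 ± 0.04 in nontreated cells (SD, n = 3 each). Its 4 h difference of 0.32 ± 0.04 had an adjusted p of 1.49e-05 and a fold of 1.25, and FK506 minus curdlan at 4 h was -0.10 (adjusted p = 0.129). Kdm5a, first known as a retinoblastoma-binding protein, averaged 9.15 ± 0.11 at 2 h and 9.42 ± 0.03 at 4 h, against 9.28 ± 0.06 in nontreated cells, and its differences had adjusted p of 0.103 and 0.0738. Kdm5b averaged 6.22 ± 0.20 at 2 h and 6.55 ± 0.05 at 4 h, against 6.16 ± 0.26 in nontreated cells. Its 4 h difference was 0.39 ± 0.11 (adjusted p = 0.0136) and came to 0.24 without both arrays that stood apart.

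The H3K36 demethylase genes Kdm2a and Kdm2b had differences of opposite sign at 2 h of curdlan, each under 1.5-fold. Kdm2a read 10.37, 10.33 and 10.13 at 2 h of curdlan, against 10.48, 10.55 and 10.60 in nontreated cells, a difference of -0.26 ± 0.06 (adjusted p = 0.00475). With FK506 at 2 h it read 10.62, 10.56 and 10.66, above every array with curdlan alone. That FK506 difference of 0.34 ± 0.06 (1.26-fold, adjusted p = 0.00229) was the highest of the 10 members at 2 h, and it was 0.26 without both arrays that stood apart. Kdm2b, a CXXC protein that brings the Polycomb complex PRC1.1 to unmethylated CpG islands, averaged 9.63 ± 0.02 with FK506 and 9.82 ± 0.02 with curdlan alone at 2 h. Its FK506 difference was -0.20 ± 0.04 (adjusted p = 0.00468), and curdlan over nontreated cells was 0.12 at 2 h (adjusted p = 0.0403) and 0.27 at 4 h (adjusted p = 5.17e-05).

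Kdm4a, which acts on H3K9 and H3K36, was below the nontreated arrays at 2 h and above them at 4 h. It read 9.42, 9.40 and 9.54 at 2 h and 9.94, 10.04 and 9.96 at 4 h of curdlan, against 9.63, 9.66 and 9.61 in nontreated cells. The differences were -0.18 ± 0.05 at 2 h (adjusted p = 0.0109) and 0.35 ± 0.05 at 4 h (adjusted p = 3.15e-05). The step at 4 h over 2 h was 0.41 ± 0.05 with FK506 (adjusted p = 2.6e-05) and 0.53 ± 0.05 with curdlan alone (1.44-fold, adjusted p = 1.24e-06). FK506 minus curdlan alone was 0.02 at 2 h (95% confidence interval -0.07 to 0.12) and -0.09 at 4 h (-0.19 to 0.01). Kdm6a, the X-linked H3K27 demethylase gene known as Utx, averaged 9.76 ± 0.15 at 2 h and 10.03 ± 0.02 at 4 h of curdlan, against 9.81 ± 0.22 in nontreated cells. Its differences of -0.05 and 0.22 (adjusted p = 0.853 and 0.0992) stand beside 3.23 and 2.84 for Kdm6b, the other H3K27 demethylase gene of the 10. Kdm6a read lowest among nontreated arrays on replicate 1, and without that array its differences were -0.17 and 0.09.

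In the FK506 comparisons 0 of the 10 members were called by limma at either time, where 1.12% of all genes were called at 2 h and 1.75% at 4 h. Without a fold threshold, 4 members passed at 2 h (Kdm2a, Kdm2b, Kdm5c and Kdm6b; 7.57% of all genes) and 2 at 4 h (Kdm5c and Kdm6b; 11.7%). At an unadjusted p under 0.05 the counts were 5 (19.6% of all genes) and 7 (20.1%). All member differences lay between -0.36 and 0.34 at 2 h and between -0.32 and 0.16 at 4 h, with medians of 0.03 and -0.10 beside all-gene medians of -0.03 and 0.03. The groups did not overlap for 6 members at 2 h (28.5% of all genes) and for 8 at 4 h (36.3%). No member's FK506 effect was called different between the times (limma, 0 called, 1.23% of all genes called), and 1 member, Kdm1a, had an unadjusted p under 0.05 there (17.5% of all genes).

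Between the times, 1 of 10 members was raised at 4 h over 2 h with FK506 (Kdm5c), against 0.903% of all genes, and 0 were called with curdlan alone, where 4.09% of all genes were called. Without a fold threshold 4 members passed with FK506 (14% of all genes) and 7 with curdlan alone (26%). Kdm6b was below its 2 h level in both, and Kdm4a and Kdm5c were above theirs.

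The genes whose 5 group means ran most like those of each called member are given as a description, by the root-mean-square (RMS) difference after each gene's own mean was subtracted, over all genes tested. For Kdm6b they were Nfkbiz, which encodes a nuclear IkB protein (RMS difference 0.17 log2 units), Csrnp1 (0.24), Tnfaip3, which encodes the ubiquitin-editing enzyme A20 (0.25), the pentraxin gene Ptx3 (0.28) and the MAP kinase phosphatase gene Dusp1 (0.29). Their log2 fold changes over nontreated cells lay between 2.42 and 3.02 at 2 h of curdlan. In the FK506 comparison they ranged from -0.57 (Ptx3) to 0.26 (Tnfaip3) at 2 h and from -0.68 (Csrnp1) to -0.05 (Dusp1) at 4 h. For Kdm3a the nearest were Peli1 (0.02), Ammecr1l (0.04) and Nrp2 (0.05), and for Kdm5c they were Tm4sf5, Ubxn2a and Ncoa4 (0.06 each).

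**Figure D3:**
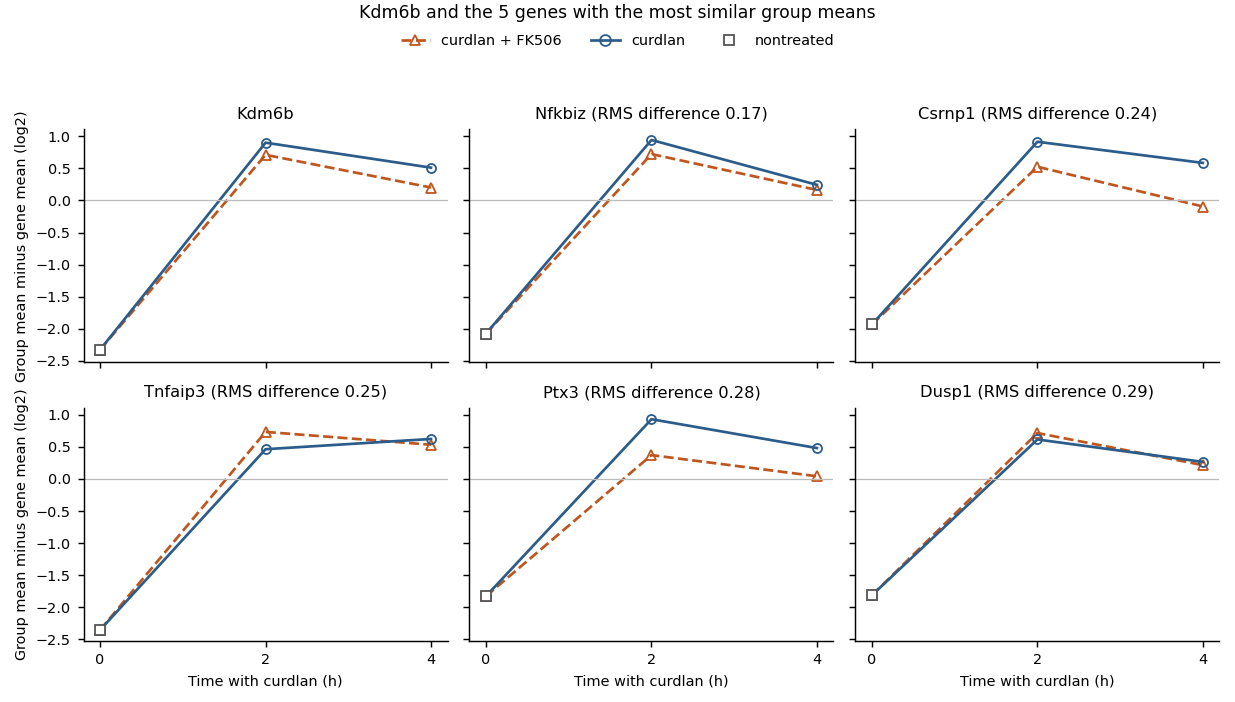
Group means of Kdm6b and of the 5 genes most like it, each minus the gene's mean over the 5 groups (y axis, log2), by hours with curdlan (x axis); triangles with a dashed line are curdlan with FK506, circles curdlan and the square nontreated cells. All 6 genes are lowest in nontreated cells, and the gap between the curdlan and FK506 lines at 4 h ranges from 0.05 for Dusp1 to 0.68 for Csrnp1.

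Other genes were described from lists of demethylases and JmjC proteins, histone methyltransferases and partner complexes. Among 21 measured of 22 other demethylases and JmjC proteins, 1 was raised at 2 h of curdlan (2.2% of all genes) and 2 at 4 h (5.05%), and the list medians were -0.04 and -0.03, beside -0.04 and -0.12 over all genes. Phf8, a demethylase gene of H3K9 and H4K20, read 9.19, 9.31 and 9.27 with FK506 and 10.11, 10.19 and 10.16 with curdlan alone at 2 h, against 9.18, 9.33 and 9.32 in nontreated cells. The FK506 arrays at 2 h overlapped the nontreated ones, and the curdlan arrays lay above both. Phf8 rose by 0.88 ± 0.05 at 2 h of curdlan (adjusted p = 2.33e-08) and fell with FK506 relative to curdlan alone, by a log2 difference of -0.90 ± 0.05 (adjusted p = 7.28e-08). Riox2, a JmjC ribosomal oxygenase gene, rose by 1.17 ± 0.09 at 4 h of curdlan (adjusted p = 1.25e-07). Its FK506 difference was 0.26 at 2 h (adjusted p = 0.108) and 0.07 at 4 h (adjusted p = 0.786). Hspbap1 rose by 0.70 ± 0.04 at 4 h (adjusted p = 1.51e-08).

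Among 11 PRC2 subunits, which write the mark that Kdm6b and Kdm6a erase, 1 was raised at 2 h (2.2% of all genes), and 1 was raised (5.05%) and 1 lowered (4.15%) at 4 h of curdlan. Jarid2, a JmjC-family cofactor of PRC2 without known demethylase activity, read 7.63, 7.62 and 7.61 with FK506 and 9.13, 9.10 and 8.89 with curdlan alone at 2 h, against 8.04, 8.24 and 8.12 in nontreated cells. The FK506 arrays lay below the nontreated ones and the curdlan arrays above them. It rose by 0.91 ± 0.07 at 2 h of curdlan (adjusted p = 3.09e-07), and its FK506 difference was -1.42 ± 0.07 at 2 h (adjusted p = 1.41e-08, called) and -0.35 at 4 h (adjusted p = 0.00328, not called). Those FK506 effects differed between the times by 1.07 ± 0.10 (adjusted p = 2.44e-05). Aebp2 rose by 0.82 ± 0.04 at 4 h of curdlan (adjusted p = 1.98e-09), and Phf19, a Polycomb-like subunit, fell by 0.78 ± 0.06 (adjusted p = 1.11e-07). The catalytic subunit genes Ezh1 and Ezh2 were not called in the curdlan or FK506 comparisons. Over nontreated cells Ezh2 differed by -0.50 ± 0.04 at 4 h of curdlan (adjusted p = 1.07e-07) and by -0.01 at 2 h. Ezh1 differed by -0.33 ± 0.04 at 2 h (adjusted p = 3.63e-05) and by -0.11 at 4 h. Their FK506 differences lay between -0.15 (Ezh2 at 2 h, adjusted p = 0.0241) and 0.04.

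Of 17 H3K4 methyltransferases and subunits, 0 were called at 2 h of curdlan (3.6% of all genes). At 4 h 0 were raised (5.05% of all genes) and 1 was lowered (4.15%), which was Smyd3 (-0.63 ± 0.06, adjusted p = 1.15e-06). The list medians were -0.06 at 2 h and -0.02 at 4 h. Of 6 measured of 7 H3K9 methyltransferases, Suv39h2 rose by 0.98 ± 0.09 at 2 h (adjusted p = 2.18e-06) and its FK506 difference there was -0.77 ± 0.09 (adjusted p = 6.58e-05, called). Setdb2, named after its values were seen, had FK506 differences of 0.33 at 2 h and -0.48 at 4 h, and their difference of -0.82 ± 0.13 was called (adjusted p = 0.0027). None of 5 measured of 6 H3K36 methyltransferases was called in the curdlan or FK506 comparisons. Over all genes 3.6% and 9.2% were called at 2 h and 4 h of curdlan, and 1.12% and 1.75% in the FK506 comparisons. At an adjusted p under 0.05 without a fold threshold, 2 passed at 2 h of curdlan (20.1% of all genes) and 3 at 4 h (37.3%). In the FK506 comparison 1 passed at 2 h (7.57% of all genes) and 1 at 4 h (11.7%).

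Of 14 measured of 16 partners of the demethylases in the CoREST and PRC1.1 complexes, 3 were raised at 2 h of curdlan (2.2% of all genes) and 1 at 4 h (5.05%). Bcor, the corepressor subunit of PRC1.1, rose by 1.07 ± 0.07 at 2 h (adjusted p = 4.26e-08). Rnf2, the ubiquitin ligase subunit, rose by 1.06 at 2 h and 1.15 at 4 h, and Rybp by 0.63 at 2 h. Rybp read 8.94 on nontreated replicate 1, against 9.39 and 9.46 on the other nontreated arrays, and its difference was 0.47 without that array, no longer called. Its call was also lost with the mean of all probe sets (0.52), with array weights (0.41) and without both arrays that stood apart (0.43). Other PRC1.1 genes of the list were not called at 2 h or 4 h of curdlan, with differences of -0.19 and 0.10 for Pcgf1, -0.03 and -0.06 for Ring1 and 0.23 and 0.34 for Bcorl1. With FK506, Rnf2 was 0.66 above nontreated cells at 2 h (adjusted p = 0.000892, called). Rnf2 read 7.71 on nontreated replicate 1, against 8.26 and 8.11 on the other nontreated arrays. That call was lost without nontreated replicate 1 (0.50), with array weights (0.46) and without both arrays that stood apart (0.50). Between FK506 and curdlan alone 0 of these 14 were called by limma at 2 h (1.12% of all genes) or 4 h (1.75%). At an adjusted p under 0.05 without the fold threshold, 1 passed at 2 h (7.57%) and 1 at 4 h (11.7%). The lowest differences of the list were -0.53 at 2 h and -0.57 at 4 h, and 8 of 14 were above 0 at each time. Bcor averaged 9.35 with FK506 and 9.89 with curdlan alone at 2 h, and Rnf2 averaged 8.61 and 9.18 at 4 h. The list medians stayed between -0.03 and 0.04 in the 2 curdlan and 2 FK506 comparisons.

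**Figure D4:**
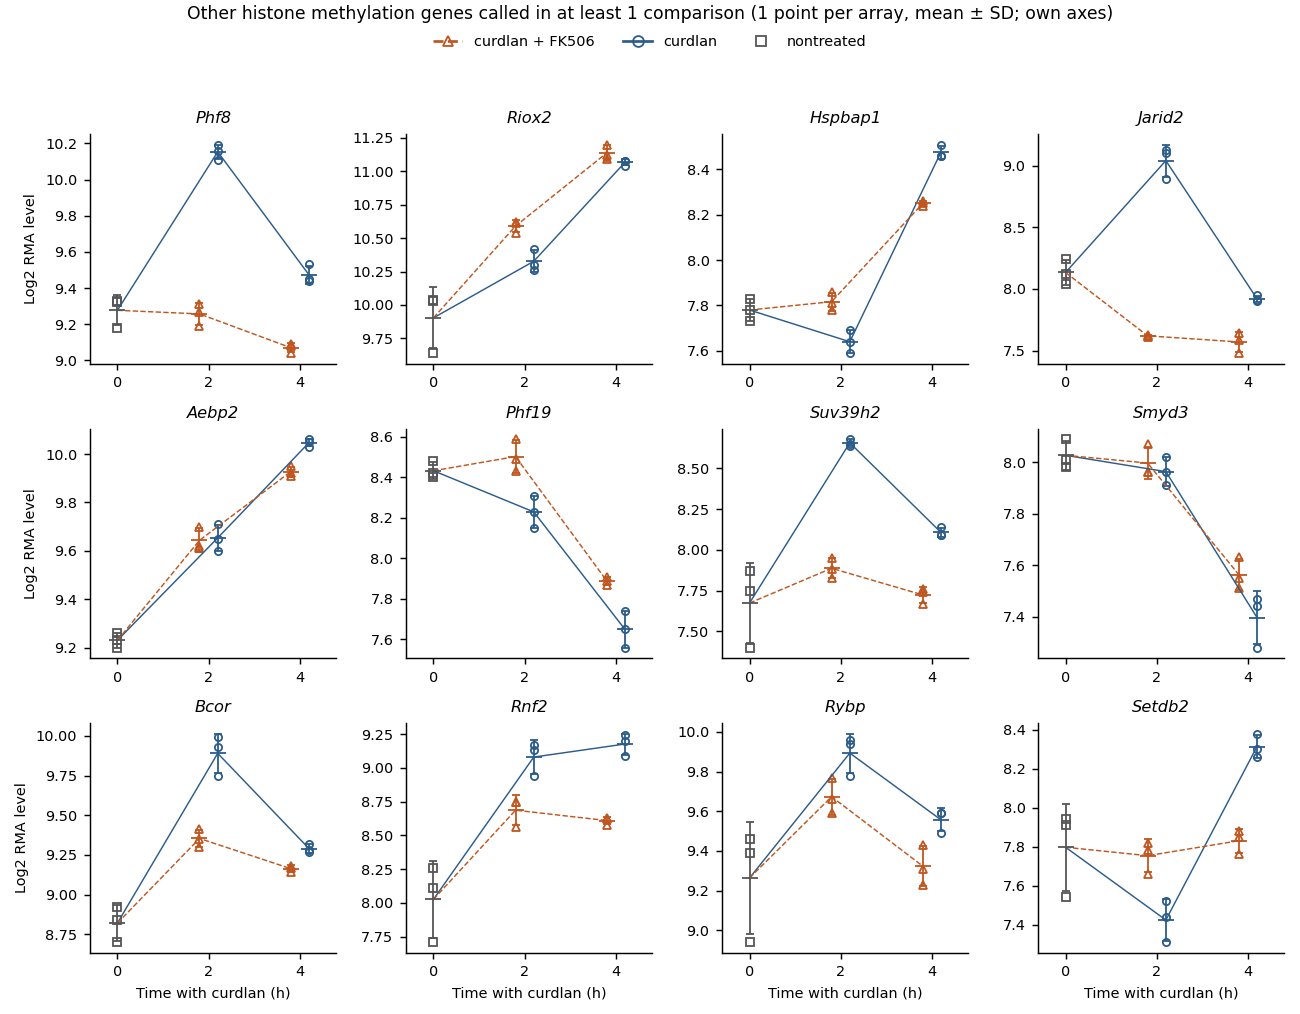
Log2 RMA level (y axis, separate scale per gene) of 12 called genes from the lists of other demethylases and JmjC proteins, histone methyltransferases and partner complexes. The x axis is hours with curdlan (nontreated cells at 0), with 1 point per array and the mean and SD of 3 arrays. Triangles are curdlan with FK506, circles curdlan and squares nontreated. Phf8, Jarid2 and Suv39h2 are high with curdlan alone at 2 h and lower with FK506. The FK506 and curdlan values of Aebp2, and those of Riox2 at 4 h, are close together.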

How the data were processed

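Gene expression was measured on 15 Affymetrix Mouse Gene 1.0 ST arrays, 3 in each of 5 groups taken from the labels. The authors deposited log2 intensities made by RMA, with affy in R 2.15.2. The quantile step of RMA hides a shift of all genes at once. Of 34760 probe sets, the 21640 with 1 gene symbol were used (1321 had several, 11799 none). Each gene was read from its probe set of highest mean, giving 19937 genes with no filter on low values. Group means were fitted with limma 3.58.1 (R 4.3.3) over all arrays, with two-sided moderated tests (10 residual degrees of freedom) and Benjamini-Hochberg adjustment over all genes in each of 9 comparisons, at the study's thresholds. The median SE of a log2 difference was 0.0768, and the number of arrays limits the precision. FK506 effects are curdlan with FK506 minus curdlan. No pair of arrays was identical (mean correlation within groups 0.993 to 0.999).

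All 10 members are named, with list genes called in a curdlan or FK506 comparison and the genes of most similar group means (5 for Kdm6b, 3 for Kdm3a and for Kdm5c). The members and lists were chosen with earlier results of these data known. Alternatives changed the probe set rule, normalization, array weights, moderation, filter, fold threshold, sample set and replicate block, or left out arrays. The fit was tested on simulated data.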

Additional observations from a re-analysis of the deposited data

How the results depend on the processing

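Of 2340 member values under the alternatives, 2291 kept their call, 7 lost it, 42 gained it (33 of them by dropping the fold threshold) and 0 reversed, while 33 values called under neither setting changed sign. Of 9 calls, 4 held under every alternative, the rises of Kdm6b over nontreated cells. Of the 7 losses, 5 came from the 2-fold threshold, which the other 5 calls, all under 2-fold, could not pass. The remaining losses were of Kdm3a at 2 h of curdlan. Apart from that threshold, the Kdm5c calls and that of Kdm3a at 4 h held throughout. Without a fold threshold the members passing were 7 and 8 for curdlan at 2 h and 4 h over nontreated cells (20.1% and 37.3% of all genes). They were 3 and 7 for curdlan with FK506 over nontreated cells (17.6% and 26%) and 4 and 2 for FK506 against curdlan (7.57% and 11.7%). For 4 h over 2 h they were 7 with curdlan (26%) and 4 with FK506 (14%). At a 2-fold threshold they were 1 for curdlan at 2 h (212 raised and 34 lowered of all 19937 genes) and 1 at 4 h (475 and 165). For curdlan with FK506 over nontreated cells Kdm6b alone passed at 2 h (163 and 10 of all genes) and at 4 h (254 and 64). For 4 h over 2 h with FK506 there were 0 (54 and 8). Fitting only the groups compared gave 1 member for curdlan at 2 h (Kdm3a had an adjusted p of 0.0921), beside 418 raised and 257 lowered over all genes. Leaving out each array in turn gave 1 to 2 members for curdlan at 2 h, where nontreated replicate 1 took Kdm3a out (417 raised and 396 lowered over all genes). It gave 2 to 3 for curdlan with FK506 at 4 h (669 and 471 without nontreated replicate 3). For curdlan at 4 h over 2 h it gave 0 to 1 (593 and 263 without curdlan 2 h replicate 1). Centring the medians gave 2 members for that step (Kdm4a at 0.60, Kdm5c at 0.64), beside 682 raised and 193 lowered over all genes. Causes were not tested. Same-numbered arrays had mixed correlations (9 of 30 pairs over 0.1, range -0.73 to 0.58). The lowest, -0.62 and -0.73, were between nontreated and curdlan 2 h arrays and each involved an array that stood apart. With 3 arrays per group these values cannot decide whether replicate numbers pair the arrays. With the replicate number as a block every member kept its call, with 2 members called for curdlan at 2 h (438 raised and 279 lowered over all genes) and 3 at 4 h (1004 and 830).

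Centring moved the all-gene calls from 1007 raised and 828 lowered to 1300 and 545 for curdlan at 4 h, from 439 and 279 to 484 and 226 at 2 h, and from 72 and 152 to 100 and 125 for FK506 at 2 h. The array weights come from an iteration that stopped before full convergence. Among the 12 called genes of the other demethylase, JmjC, methyltransferase and partner lists, 2808 values held 0 reversals. Smyd3 lost its 4 h call after repeated quantile normalization (-0.58), with centred medians (-0.52) and without curdlan 4 h replicate 1 (-0.57).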
